A study of Xenopus laevis with 3 samples.

Results

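The SLC25 family comprises the carrier proteins that move metabolites across the inner membrane of mitochondria, and its transcripts were followed in heads of Xenopus laevis tadpoles after knockdown of the kinase MLTK or the transcription factor Sox6. Members were taken by name, as probe sets annotated with a single gene symbol that begins with slc25a and a digit. They numbered 46 of the array's 32635 probe sets and represented 34 gene copies out of 11303, since X. laevis keeps many genes as a pair of homeologs, written .L and .S. These copies carried 24 different family numbers. A further probe set, annotated to both slc25a44.S and plk2.L, was left out. Of 62 slc25 symbols in the RefSeq gene table, the other 28, slc25a4.S and slc25a5.S among them, had no such probe set and are not analysed here.

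All 3 groups were head RNA from embryos at about stage 41, 72 hours after in vitro fertilisation, raised at 22 °C. Each blastomere had received 10 ng of morpholino at its animal side early in cleavage. The groups differed in the injected oligonucleotide, which was CoMO, xMLTK-MO or xSox6-MO, and CoMO was taken as the reference. Each group had 1 array. The sources used here do not say how many embryos were pooled or whether they shared a clutch, and depletion of the target proteins or of their mRNA was not analysed here. The spread between embryos is therefore unknown, no test was possible, and every fold below describes these 3 arrays alone.

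Carriers of this family share a fold of repeated membrane-spanning segments and differ in what they exchange. ADP/ATP carriers bring ADP into the matrix and send ATP out, and the phosphate carrier supplies phosphate for ATP synthesis. Others serve the malate-aspartate shuttle, entry of acylcarnitines for fatty acid oxidation, iron delivery for haem and iron-sulphur clusters, or cofactor supply. In mammals SLC25A4 is the ADP/ATP carrier typical of heart and skeletal muscle, whereas SLC25A5 is the form of growing and non-muscle cells.

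Values are probe-set intensities, compared on the log2 scale, where a difference of 1 is 2-fold. Median intensity was 92.7, 91.1 and 89.8 on the CoMO, xMLTK-MO and xSox6-MO arrays, and the highest of 23 negative control probe sets read 23.3, 26.2 and 21.0. Of the 34 carrier copies, 31 were above these controls on all arrays and 3 on no array. Copies with a mean log2 intensity of at least 6.51, the median of all probe sets, numbered 25 and form the set in which the family's calls are counted, beside 7258 genes in all. Counts in the comparison lists and role groups are over all measured copies unless stated. Spike-in controls read lower on both morphant arrays than on CoMO. Centring on the hybridisation controls would add 0.10 to each xMLTK-MO difference and 0.15 to each xSox6-MO difference, and centring on the poly-A controls 0.27 and 0.35, so a negative difference smaller than these turns positive on those scales, and a positive one grows. Nearly all genes move with such a shift: the median difference over the 7258 genes was -0.02 and -0.01 as deposited, and 0.25 and 0.34 with poly-A centring.

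The ADP/ATP carrier gene slc25a4.L was lower on both morphant arrays, and it stood below every other carrier copy in both comparisons with CoMO. Its single probe set had an intensity of 401 in CoMO, 211 in xMLTK-MO and 110.1 in xSox6-MO. The CoMO array was thus the highest and the xSox6-MO array the lowest, all above the negative controls. In xMLTK-MO it stood at 52.6% of the CoMO value, 1.90-fold lower, a log2 difference of -0.93. In xSox6-MO it stood at 27.5%, 3.64-fold lower, a difference of -1.86. Between the morphants it was 1.92-fold higher in xMLTK-MO than in xSox6-MO. A head is a mixed tissue, and fewer cells of a type cannot be told apart from less RNA per cell.

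slc25a5.L, the other ADP/ATP carrier gene measured, had 3 probe sets, and none of them showed a lower value in a morphant. Their intensities in CoMO were 12179, 12996 and 14282. In xMLTK-MO they were 13041, 14033 and 15425, and in xSox6-MO they were 14151, 15212 and 16006. All 3 probe sets were thus slightly brighter on the morphant arrays, though some come from the same source sequence and are not independent readings. Their log2 differences lay between 0.10 and 0.11 for xMLTK-MO, and between 0.16 and 0.23 for xSox6-MO. The change of slc25a4.L relative to slc25a5.L does not depend on how the arrays are centred. It was -1.03 in xMLTK-MO, or 2.05-fold, and -2.07 in xSox6-MO, or 4.19-fold.

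**Figure D1:**
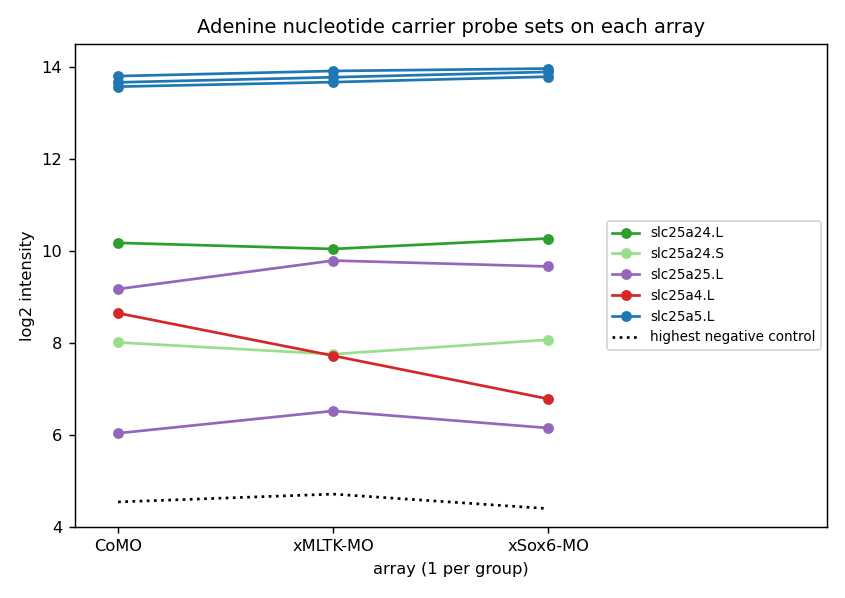
Log2 intensity (vertical axis) of each probe set of the adenine nucleotide carriers on the CoMO, xMLTK-MO and xSox6-MO arrays, 1 array per group. Points are single probe sets and lines only join the same probe set; the dotted line is the highest negative control. slc25a4.L goes from 8.65 in CoMO to 7.72 in xMLTK-MO and 6.78 in xSox6-MO, while the 3 slc25a5.L lines are nearly flat.

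The remaining adenine nucleotide carriers are ATP-Mg/phosphate exchangers regulated by calcium, which set the size of the matrix nucleotide pool. slc25a25.L was higher on both morphant arrays, with 1 probe set at 576, 885 and 810.1 in CoMO, xMLTK-MO and xSox6-MO and the other at 65.6, 91.7 and 71.0. CoMO was the lowest array for both probe sets. The gene's mean difference was 0.55 in xMLTK-MO, the highest there of the copies with slc25 symbols, and 0.30 in xSox6-MO. Its relative slc25a24 differed less, with slc25a24.L at -0.13 and 0.09 and slc25a24.S at -0.25 and 0.06. The negative values of both copies in xMLTK-MO turn positive with poly-A centring, at 0.14 and 0.02, while the values in xSox6-MO stay positive on both spike-in scales.

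On the deposited scale, the family's counts past each fold size were near the shares over all genes, given only 25 copies. In xMLTK-MO, 0 of the 25 copies passing the level filter were at least 2-fold lower, where 0.785% of all genes were, and 0 were at least 2-fold higher, where 1.28% of all genes were, together 2.07%. At 1.5-fold, slc25a4.L was the sole copy lower and none was higher, against 4.13% and 4.15% of all genes, together 8.28%. Of the 25, 11 were lower and 14 higher, with a median difference of 0.03, where 53.1% of the 7258 genes were lower. Centred on hybridisation controls the split was 8 and 17, and centred on poly-A controls 1 and 24, the 1 being slc25a4.L. These centrings add the same amount to every gene. The count of copies at least 1.5-fold higher moved from 0 to 2 with hybridisation control centring, where 6.05% of all genes passed, and to 7 with poly-A centring, where 12.7% passed.

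In xSox6-MO, 1 of the 25 copies, slc25a4.L, was at least 2-fold lower, where 1.06% of all genes were, and 0 were at least 2-fold higher, where 0.978% were, together 2.04%. At 1.5-fold the counts were 1 lower, again slc25a4.L, and 1 higher, slc25a22l.S, against 4.77% and 4.41% of all genes, together 9.18%. The split was again 11 lower and 14 higher, with a median of 0.06, where 50.9% of the 7258 genes were lower. With centrings that add the same amount to every gene, it became 8 and 17 (hybridisation controls) and 3 and 22 (poly-A controls). The copies at least 1.5-fold higher then numbered 2 and 5, where 8.72% and 20.4% of all genes passed. Both comparisons share the CoMO array. Ordered from the lowest difference among 7258 genes, slc25a4.L was number 9 in xSox6-MO and number 78 in xMLTK-MO. The next carrier in xSox6-MO, slc25a20.L at -0.48, was number 528, and the next in xMLTK-MO that passed the filter, slc25a13.L at -0.26, was number 1330.

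**Figure D2:**
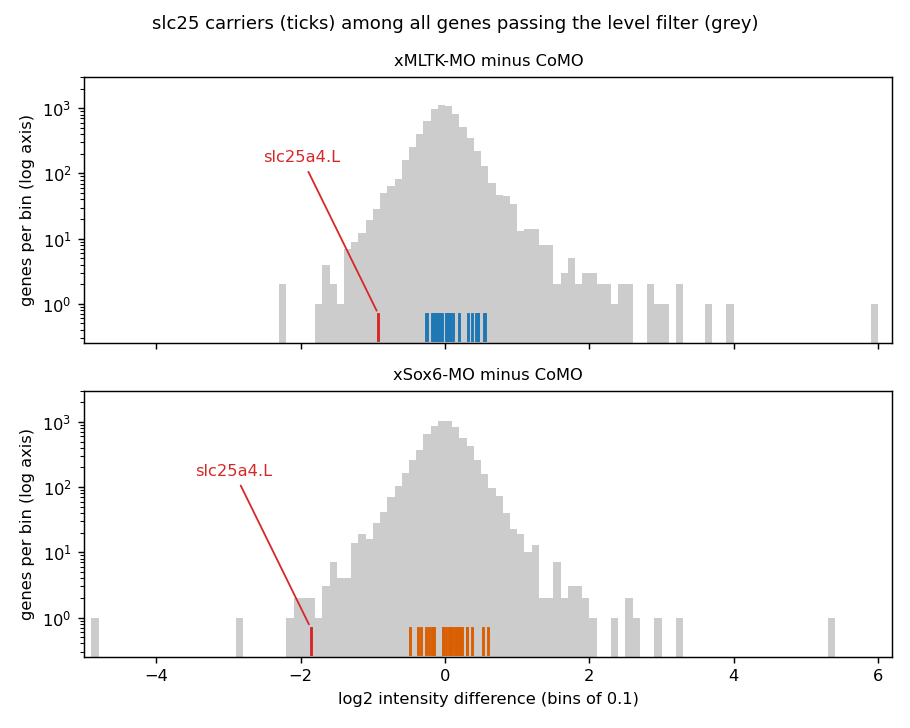
Number of genes (log axis) in bins of 0.1 of the log2 intensity difference, for the 7258 genes passing the level filter, with xMLTK-MO minus CoMO above and xSox6-MO minus CoMO below. Ticks mark the 25 carrier copies in the same set: slc25a4.L lies at -0.93 and -1.86, and the others between -0.26 and 0.55 and between -0.48 and 0.60.

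Between the morphants, 0 of the 25 copies differed by 2-fold in either direction, where 0.716% of all genes did, 0.22% lower and 0.496% higher in xMLTK-MO. At 1.5-fold, 2 copies were higher in xMLTK-MO, slc25a4.L and slc25a12.L, and 0 were lower, where 2.47% of all genes were higher and 1.71% lower, together 4.17%. In order of this difference from the highest, slc25a4.L was number 52 of 7258. Over all 34 copies, 31 varied by less than 1.5-fold between their highest and lowest array, and the other 3 were slc25a4.L, slc25a12.L and slc25a22l.S. The 31 include slc25a1-b, slc25a36.L and slc25a36.S, which were not above the negative controls on any array. The share of all genes within such a range was not computed, so this count shows nothing particular to the family.

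**Figure D3:**
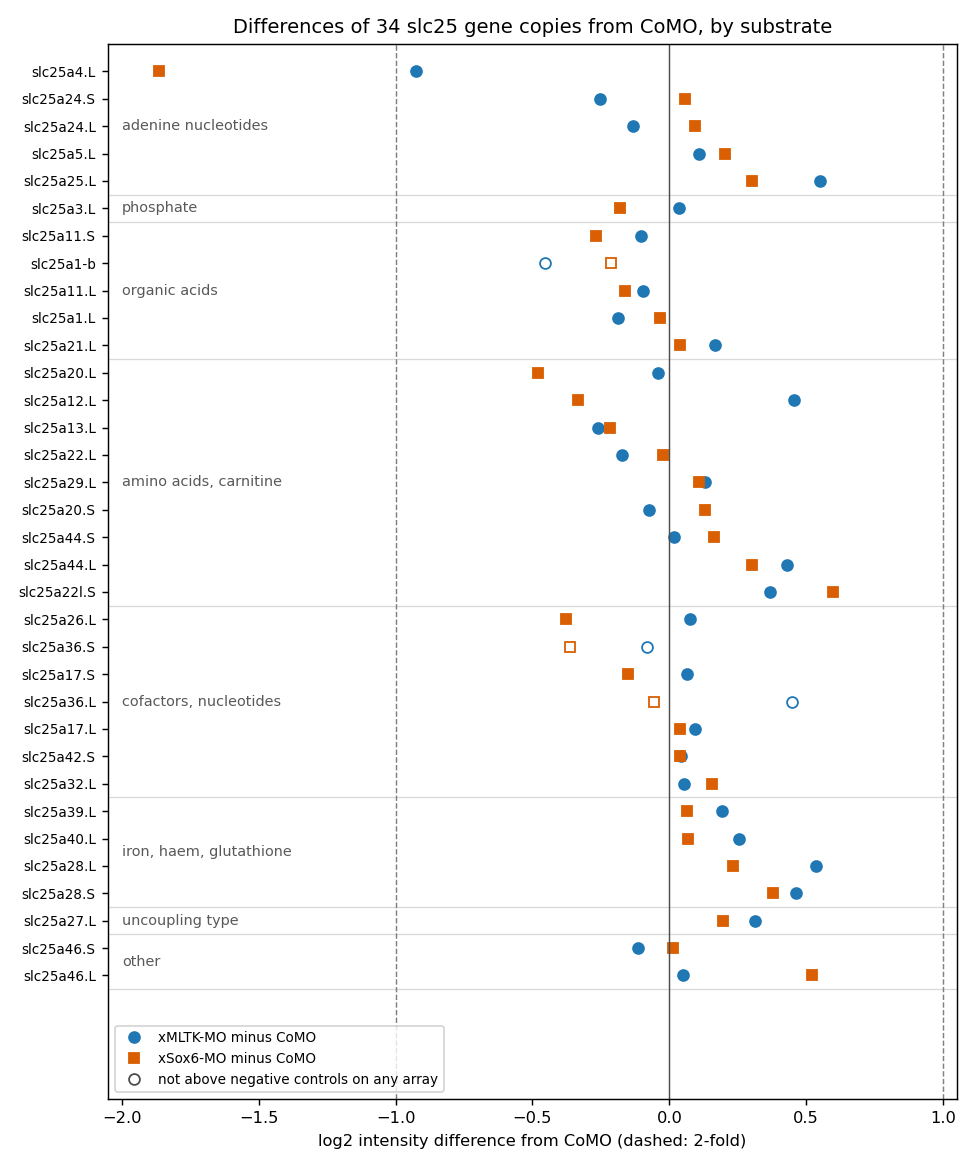
Log2 intensity difference from CoMO (horizontal axis) of each of the 34 slc25 gene copies, grouped by what the carrier transports, for xMLTK-MO (circles) and xSox6-MO (squares). Dashed lines mark 2-fold and open symbols copies not above the negative controls on any array. slc25a4.L alone reaches the 2-fold line, in xSox6-MO.

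The phosphate carrier gene slc25a3.L had 3 probe sets of very different brightness. The brightest read 6372 in CoMO, 6362 in xMLTK-MO and 4970 in xSox6-MO, so that xSox6-MO was the low array by 0.36 on the log2 scale. The others read 45.6, 45.1 and 40.9, and 22.7, 24.7 and 22.3, the last near the negative controls. The mean over probe sets differed by 0.03 and -0.18, the latter positive with poly-A centring.

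Among carriers of organic acids, the copies above the negative controls differed little. The citrate carrier gene slc25a1.L, which exports citrate for lipid synthesis, had intensities of 1923, 1690 and 1877 in CoMO, xMLTK-MO and xSox6-MO. The oxoglutarate carrier gene of the malate-aspartate shuttle, slc25a11, had differences of -0.10 for both slc25a11.L and slc25a11.S in xMLTK-MO, and of -0.16 and -0.27 in xSox6-MO. One pair of its probe sets, 1 annotated to each homeolog, comes from the same source sequence and may detect both. slc25a21.L, a carrier of oxodicarboxylates from lysine breakdown, differed by 0.17 and 0.04. slc25a1-b was not above the negative controls on any array, at 18.3, 13.4 and 15.8.

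The amino acid and carnitine carriers held the copies with the next largest contrasts. slc25a12.L encodes a calcium-regulated aspartate/glutamate carrier, in mammals the form of brain and muscle, and read 171 in CoMO, 235 in xMLTK-MO and 136.0 in xSox6-MO. The xMLTK-MO array was the highest and the xSox6-MO array the lowest, 1.73-fold apart, with CoMO between them. slc25a13.L, its relative typical of mammalian liver, differed by -0.26 and -0.22, with 2 probe sets at -0.25 and -0.27 in xMLTK-MO but at -0.06 and -0.37 in xSox6-MO, a gap of 0.31. The negative differences of both genes turn positive with poly-A centring.

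slc25a20 encodes the carnitine/acylcarnitine carrier of fatty acid oxidation, and its homeologs parted in xSox6-MO. slc25a20.L read 1359, 1320 and 974 in CoMO, xMLTK-MO and xSox6-MO, and slc25a20.S read 851, 810 and 933. In xSox6-MO the .L copy was thus the lower by 0.48 and the .S copy the higher by 0.13, a gap of 0.61 that was the largest of the 8 homeolog pairs in that comparison. In xMLTK-MO the pair differed by -0.04 and -0.07.

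The glutamate carrier gene slc25a22.L stood at -0.17 and -0.02. slc25a22l.S, a gene named as similar to it, was lowest in CoMO and highest in xSox6-MO, with 141, 183 and 214, differences of 0.37 and 0.60. The latter was the highest of the copies with slc25 symbols in xSox6-MO. slc25a44 encodes a carrier of branched-chain amino acids. Its slc25a44.L copy read 269.9, 364 and 333 in CoMO, xMLTK-MO and xSox6-MO, lowest in CoMO, with differences of 0.43 and 0.30, and slc25a44.S differed by 0.02 and 0.16. The basic amino acid carrier gene slc25a29.L differed by 0.13 and 0.11.

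All 4 measured copies for iron and glutathione transport were higher on both morphant arrays than on CoMO. This held on the deposited scale and with renewed quantile normalisation. Over all 11303 genes, 5536 were higher in xMLTK-MO and 5314 in xSox6-MO as deposited, and the share higher in both was not computed. Carriers of other groups, slc25a5.L, slc25a25.L and slc25a44.L among them, were also higher in both, so this direction is not particular to the group. The copies slc25a28.L and slc25a28.S are homeologs of 1 gene, and both comparisons share the CoMO array. Spike-in centring adds to every difference and so is no check of the carriers' shared direction. Mitoferrin 2, encoded by slc25a28, carries iron into mitochondria in many tissues. The genes slc25a37.L, slc25a37.S and slc25a38.S of the same group had no probe set annotated to them alone and were not measured. Of the slc25a28.L probe sets, 1 read 986, 1435 and 1280.1 in CoMO, xMLTK-MO and xSox6-MO and the other 141, 204 and 149.6. slc25a28.S had a probe set at 431, 547 and 524 and another, not above the negative controls, at 13.5, 20.2 and 18.9. In each of the 4 probe sets CoMO was the lowest and xMLTK-MO the highest. The copies' mean differences were 0.54 and 0.46 in xMLTK-MO and 0.23 and 0.38 in xSox6-MO. slc25a39.L and slc25a40.L, whose mammalian counterparts bring glutathione into mitochondria, differed by 0.19 and 0.25 in xMLTK-MO and by 0.06 and 0.07 in xSox6-MO. None of these copies reached 1.5-fold on the deposited scale. With hybridisation control centring 1 did, slc25a28.L in xMLTK-MO at 0.64. With poly-A centring slc25a28.L and slc25a28.S did in xMLTK-MO, at 0.81 and 0.73, and slc25a28.S in xSox6-MO at 0.73. The group's median was 0.36 in xMLTK-MO and 0.15 in xSox6-MO, beside -0.01 and -0.02 over all 11303 genes.

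Genes of haem synthesis, which uses mitochondrial iron, had lower medians than these carriers. Of 12 copies measured, 8 were lower in xMLTK-MO and 7 in xSox6-MO, with medians of -0.06 and -0.12. Of all 11303 genes, 51.0% and 53.0% were lower. With hybridisation control centring 5 and 6 were lower and both medians were positive, at 0.05 and 0.04. On the deposited scale 1 copy was at least 2-fold lower in xMLTK-MO and 0 in xSox6-MO, beside 0.77% and 1.02% of all 11303 genes. That copy, alas2.L, the erythroid enzyme of the first step, differed by -1.35 and -0.75. The summed intensity of 16 erythrocyte marker copies, 13 of them above the negative controls and alas2 again among them, was 87.4% of CoMO in xMLTK-MO and 83.1% in xSox6-MO, and its part in the iron carrier values was not tested.

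Carriers of cofactors and nucleotides were mostly dim. In xMLTK-MO the 5 copies above the negative controls spanned 0.04 for the coenzyme A carrier slc25a42.S to 0.09 for slc25a17.L, a peroxisomal carrier. In xSox6-MO the lowest was slc25a26.L, the S-adenosylmethionine carrier, which read 164, 173 and 126 in CoMO, xMLTK-MO and xSox6-MO, a difference of -0.38, and the highest was the folate carrier gene slc25a32.L at 0.16. slc25a36.L and slc25a36.S, for pyrimidine nucleotides, were not above the negative controls on any array.

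Of the uncoupling protein type, slc25a27.L, in mammals a neuronal form, read 165, 205 and 189 in CoMO, xMLTK-MO and xSox6-MO, lowest in CoMO. Genes of this type that carry other symbols were also measured, and their values varied. ucp2.L differed by 0.44 and 0.48, ucp2.S by 0.81 and 0.06, and both copies of ucp1 were not above the negative controls. slc25a46 encodes an outer membrane protein of mitochondrial shape rather than a known metabolite carrier. Its slc25a46.L copy read 101, 104.0 and 144 in CoMO, xMLTK-MO and xSox6-MO, so that only xSox6-MO was high, by 0.52, whereas slc25a46.S differed by -0.11 and 0.01.

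Several probe sets for a copy showed how far differences formed from the same arrays vary with the probe set. For the 10 copies with more than 1 probe set, the median gap between their highest and lowest difference was 0.06 in xMLTK-MO and 0.24 in xSox6-MO, and the largest were 0.26, in slc25a17.L, and 0.43, in slc25a21.L. For the 8 homeolog pairs the median gap was 0.10 and 0.17, and the largest were 0.53, in slc25a36, and 0.61, in slc25a20. Both slc25a36 copies were not above the negative controls on any array. Of the pairs with both copies passing the level filter, slc25a44 had the largest gap in xMLTK-MO, 0.41. The differences of slc25a4.L, at -0.93 and -1.86, were larger than all of these gaps, but its own value rests on a single probe set. The gaps show how probe sets vary and stand in for no biological replicate.

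**Figure D4:**
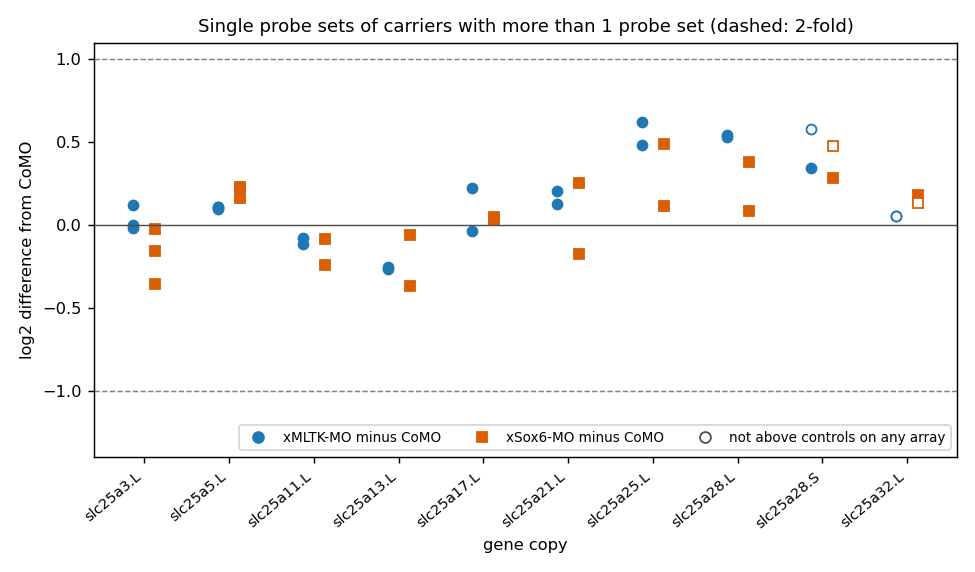
Log2 intensity difference from CoMO (vertical axis) of single probe sets for the 10 carrier copies that have more than 1, for xMLTK-MO (circles) and xSox6-MO (squares). Open symbols were not above the negative controls on any array and dashed lines mark 2-fold; the widest spreads are 0.26 in xMLTK-MO and 0.43 in xSox6-MO.

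Genes for proteins that bring carriers into mitochondria, and for other channels and transporters of these organelles, were measured as comparison lists. The carrier import route, made of outer membrane receptors and small chaperones of the intermembrane space, had 15 copies. Of these, 0 differed by 1.5-fold in either comparison. Among the 7258 genes passing the level filter 8.28% and 9.18% did, so 0 of 15 is near that share. The medians of the 15 copies were 0.05 and 0.08. Their summed intensity was 100.4% of CoMO in xMLTK-MO and 105.8% in xSox6-MO. Of 16 copies of other transport proteins, which include the voltage-dependent anion channels, the pyruvate carrier and the calcium uniporter, 0 differed by 1.5-fold in xMLTK-MO, and 1 was lower by as much in xSox6-MO, sfxn4.L of the sideroflexins at -0.67. Of the 14 copies passing the level filter, which sfxn4.L did not, 0 differed by 1.5-fold in either comparison, beside the same 8.28% and 9.18% of genes. The medians of the 16 copies were -0.02 and -0.13, both positive on both spike-in scales. The porin genes vdac1.S, vdac2.S and vdac3.L differed by -0.19, -0.05 and 0.01 in xMLTK-MO and by -0.19, -0.09 and -0.13 in xSox6-MO.

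Because SLC25A4 is a muscle form, muscle markers are given beside it. Of 25 symbols listed for fast skeletal muscle, 17 were measured as 22 copies, of which pvalb.S was not above the negative controls. The list includes des, actc1, tpm1 and tpm2, and whether its members are specific to fast fibres was not tested. Their summed intensity was 68781 in CoMO, 60311 in xMLTK-MO and 58667 in xSox6-MO, which is 87.7% and 85.3% of CoMO. In xMLTK-MO 15 of the 22 were lower and 1 at least 2-fold lower, acta1.S at -1.46, and 1 was at least 2-fold higher, des.2.S at 1.27. In xSox6-MO 20 were lower and 2 at least 2-fold lower, acta1.S at -1.26 and the tropomyosin gene tpm2.S at -1.01. Of all 11303 genes, 51.0% and 53.0% were lower by any amount in xMLTK-MO and xSox6-MO. Lower by 2-fold or more were 0.77% and 1.02% of them, and higher by as much were 1.4% and 1.06%. The medians of the 22 muscle copies were -0.19 and -0.20. Both were positive with poly-A centring, at 0.09 and 0.14, where 1 copy in xMLTK-MO and 0 in xSox6-MO were 2-fold lower.

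Slow and cardiac muscle markers were lower by more. Of 18 symbols, 16 were measured as 23 copies, of which nppa.S was not above the negative controls. Their summed intensity was 22482 in CoMO, 12624 in xMLTK-MO and 12528 in xSox6-MO, 56.2% and 55.7% of CoMO. In each comparison 7 of the 23 were at least 2-fold lower, beside 0.77% and 1.02% of all 11303 genes. These counts were 6 in xMLTK-MO and 4 in xSox6-MO with hybridisation control centring, and 3 in both with poly-A centring. A single copy, nppb.L, which encodes a natriuretic peptide, was at least 2-fold higher in each, beside 1.4% and 1.06% of all genes. The medians were -0.42 and -0.40, and -0.15 and -0.05 with poly-A centring. The slow troponin genes tnni1.2.L and tnni1.S differed by -2.23 and -1.20 in xMLTK-MO and by -2.15 and -1.70 in xSox6-MO, and the myosin light chain gene myl2.S by -1.62 and -1.99. In contrast, the cardiac troponin genes tnni3.L and tnni3.S differed by 0.27 and 0.29 in xMLTK-MO and by 0.66 and 0.52 in xSox6-MO. The summed level of this list was nearly the same in both morphants, and such a sum follows its brightest copies. The part of muscle content in the slc25a4.L values was not tested.

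**Figure D5:**
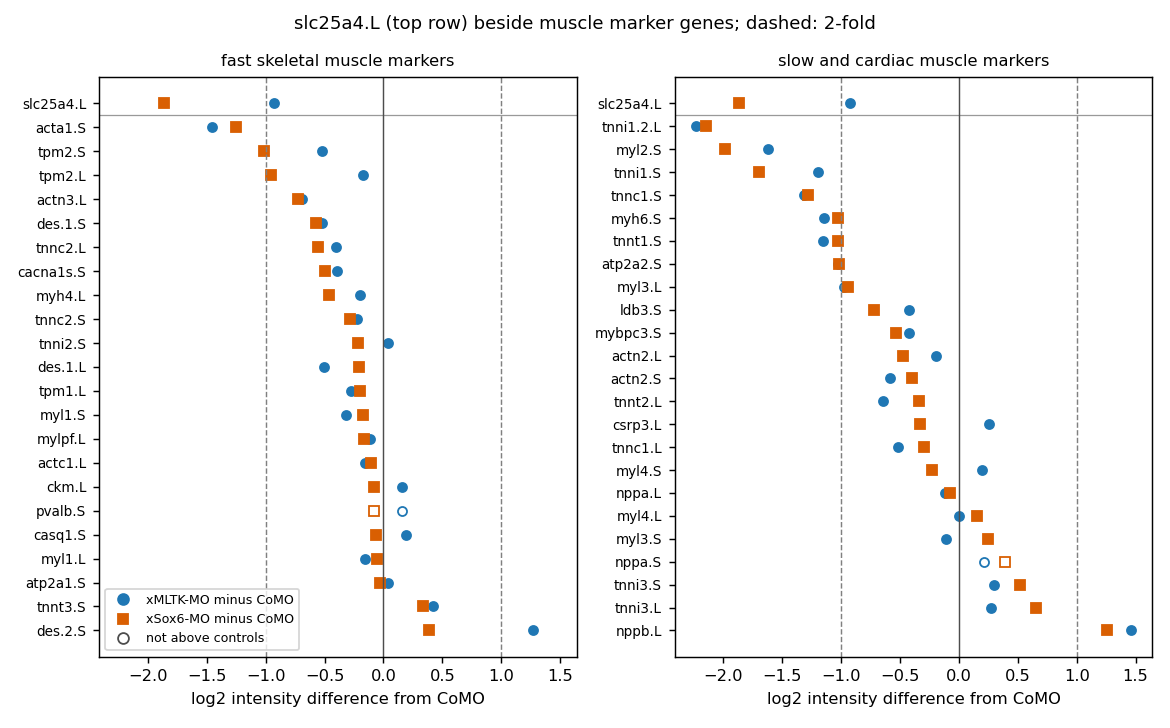
Log2 intensity difference from CoMO (horizontal axis) of slc25a4.L, in the top row of each panel, and of fast skeletal muscle markers (left) and slow and cardiac muscle markers (right), for xMLTK-MO (circles) and xSox6-MO (squares). Dashed lines mark 2-fold and open symbols copies not above the negative controls; the right panel holds 7 copies at least 2-fold lower in each comparison, the left panel 1 and 2.

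Genes of muscle energy metabolism, from creatine kinases to glycolytic enzymes, were compared in the same way. Of 22 copies, 20 were above the negative controls, and 0 of these were 2-fold lower or higher in either comparison. Over all 11303 genes, 0.77% and 1.02% were 2-fold lower and 1.4% and 1.06% higher, so a list of this size would hold few or none. Of the dim copies, slc16a3.S was 2-fold lower in xSox6-MO, at -1.10. Lower by any amount were 51.0% and 53.0% of all genes. In xMLTK-MO 7 of the 22 were lower, with a median of 0.07, and in xSox6-MO 17 were lower, with a median of -0.19, a split that became 12 of 22 with hybridisation control centring and 7 of 22 with poly-A centring. The muscle creatine kinase gene ckm.L read 10.19, 10.34 and 10.11 on the log2 scale in CoMO, xMLTK-MO and xSox6-MO, so its arrays lay close together. The mitochondrial creatine kinase genes ckmt1b.L and ckmt1b.S, whose products work beside the ADP/ATP carrier, differed by 0.05 and 0.12 in xMLTK-MO and by -0.09 and -0.22 in xSox6-MO. The phosphoglycerate mutase gene pgam2.L, a muscle glycolytic enzyme, differed by -0.62 and -0.75. Among copies brighter than the controls, the adenylate kinase gene ak1.L was the lowest in xMLTK-MO, at -0.88, and it differed by -0.38 in xSox6-MO.

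Markers of other tissues are given in the same way. Neuron markers, all 19 copies of them above the negative controls, had summed intensities of 108.2% of CoMO in xMLTK-MO and 103.2% in xSox6-MO, and epidermis markers, 15 of 19 above, of 104.2% and 112.6%. Cartilage markers, 13 of 13 above, stood at 71.1% and 67.2%. As deposited, all 13 were lower in both comparisons, 3 and 5 of them at least 2-fold. Photoreceptor and lens markers, 17 of 17 above, reached 83.8% of CoMO for xMLTK-MO and 59.5% for xSox6-MO, and their part in the slc25a4.L values was not tested. Of these 17, 15 and 17 were lower, 0 and 8 of them at least 2-fold, with medians of -0.45 and -0.98. Of all 11303 genes, 51.0% and 53.0% were lower, and 0.77% and 1.02% at least 2-fold lower. On the deposited scale slc25a4.L was highest in CoMO and lowest in xSox6-MO. Summed cartilage, erythrocyte, photoreceptor and lens, fast muscle and slow and cardiac muscle markers had the same order. The morphants lay close in both muscle sums, at 87.7% and 85.3% of CoMO for fast and 56.2% and 55.7% for slow and cardiac. Spike-in centring adds more to xSox6-MO and reverses the morphant order of these muscle sums. Liver and pancreas markers, 23 of 29 above, stood at 121.2% and 87.8%. Liver and pancreas lie outside the head, and why their transcripts were present was not tested. Such sums follow the brightest copies. By copy, 24 and 16 of the 29 were higher in xMLTK-MO and xSox6-MO, with medians of 0.27 and 0.04. At least 2-fold higher were 7 and 5, beside 1.4% and 1.06% of all 11303 genes, and 0 were 2-fold lower. Of the epidermis markers, 10 of 19 copies were lower in each comparison, with a median of -0.05 in both. Genes of the urea cycle and other metabolic partners of the carriers had no common direction. Of 16 copies, 7 were lower in xMLTK-MO and 11 in xSox6-MO, with medians of 0.01 and -0.13, the latter positive with hybridisation control centring. Of the 16, 1 was at least 2-fold higher in both comparisons, the mitochondrial arginase gene arg2.S at 1.90 and 1.91, and 0 were 2-fold lower. Over all 11303 genes, 1.4% and 1.06% were at least 2-fold higher, and 0.77% and 1.02% lower.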

How the data were processed

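Head RNA of 3 groups was labelled from 150 ng of total RNA and hybridised to 1 array per group, and the treatment named in the labels gave the group. Intensities per probe set, on a linear scale, were deposited by the authors, who used RMA per the submitters' processing notes, with GeneChip operating Software 1.4 and GeneSpring GX 11.0.2 named in the series' design text. RMA gives all arrays nearly the same distribution and hides any shift shared by every transcript.

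Here log2 was taken, probe sets of a symbol were averaged with homeologs kept apart, and differences between arrays were formed (Python 3.11.15, pandas 2.3.3). Gene symbols came from the platform annotation and were matched to RefSeq by gene identifier for all 46 probe sets. Calls over the family and over all genes use those with a mean log2 intensity of at least 6.51, and counts in the gene lists use all measured copies. No test was run, since 1 array per group leaves no residual degrees of freedom, and the number of arrays limits precision. The code was run on simulated arrays with large known shifts and little noise. That checks only that it returns such shifts, not how precise differences near 1.5-fold or 2-fold are. Family members, gene lists and the rule for named genes were chosen with earlier results of these data known. The rule names the ADP/ATP carriers, copies varying by 1.5-fold, the extremes of each transport group and list genes at 2-fold. Other list genes named in the text, such as vdac, ucp2, tnni3, ckm, ckmt1b, pgam2, ak1, ldhb and sfxn4, were chosen after their values were seen. Protein and promoter sequences were not used here. Alternatives were renewed quantile normalisation, centring on hybridisation or poly-A controls (the latter, and fold counts under each scaling, added after seeing the data), no level filter, values raised to the highest negative control, the brightest or each probe set, a pseudocount of 16 and a 1.5-fold threshold.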

Additional observations from a re-analysis of the deposited data

How the results depend on the processing

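No paired analysis was possible because each group had 1 array, and for the same reason no replicate could be left out. Of the alternatives, those not named here left the counts, the slc25a4.L differences and the carrier medians with the same sign and within 0.1 on the log2 scale. The slc25a4.L difference in xMLTK-MO, -0.93 as reported, was -0.83 with hybridisation control centring and -0.65 with poly-A centring. In xSox6-MO, -1.86 as reported, it was -1.71 and -1.52 with these, and -1.72 with a pseudocount of 16, so it stayed past 2-fold in all of them. The median of the 25 carriers moved from 0.03 to 0.13 and 0.31 in xMLTK-MO and from 0.06 to 0.21 and 0.40 in xSox6-MO with the same centrings. The difference between slc25a4.L and slc25a5.L in xSox6-MO, -2.07 as reported, was -1.93 with the pseudocount. A 1.5-fold threshold in place of 2-fold changed the counts by construction, to 1 lower copy in xMLTK-MO, 1 higher copy in xSox6-MO and 2 copies higher in xMLTK-MO than in xSox6-MO. Signal near the negative controls limits slc25a1-b, slc25a36.L and slc25a36.S.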
